A study of Homo sapiens with 6 samples.

Results

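Chromatin accessibility was examined at 7 genes that mark the passage of a B cell from the activated or germinal centre state to the antibody-secreting plasma cell: BCL6, BACH2, IRF8, IRF4, PRDM1, XBP1 and SDC1. The genes were chosen by name, and every called peak that overlapped their hg19 GENCODE gene body extended by 10 kb on each side was taken. After peaks that overlapped or adjoined were merged across libraries, 34 regions lay in these windows, of 56447 regions in all. A region that touched the 1 kb on either side of the start of a protein-coding transcript of the gene was called a promoter region (14 regions), and any other a distal region (20 regions).

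The libraries were bulk ATAC-seq of GM12878, a human lymphoblastoid line made by transforming B cells with Epstein-Barr virus. In this assay the enzyme Tn5 cuts open DNA and joins adapters to it, so that reads gather where chromatin is accessible. All 6 libraries came from cells fixed in 1% paraformaldehyde, lysed with 0.05% Igepal CA-630, transposed for 30 min and stopped with 40 mM EDTA, and in all of them the crosslinks were reversed at 65 °C with proteinase K. They differed in the last step, with 2 replicates each: a buffer with the detergent SDS and then DNA purification (SDS libraries), a buffer without SDS and then purification (purified SDS-free libraries), and the buffer without SDS with PCR directly in the mixture (unpurified SDS-free libraries). That the first 2 kinds of library were both purified is taken from the text of the study. By its methods, the SDS buffer also held NaCl and EDTA, and the buffer without SDS held other detergents. Contrasts with the SDS libraries thus compare whole buffers, not SDS alone. The methods also describe removing the supernatant before reversal in the unpurified workflow and not in the SDS one, so handling may have differed there too. Unpurified SDS-free and SDS libraries thus differed in both buffer and purification, which cannot be told apart between them. No antibody, drug or other cell state was included, so activated B cell and plasma cell genes were compared within 1 cell line. Nothing in the labels says that replicates were separate cultures, and the p-values below measure only the spread between these libraries, which may be technical.

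In the germinal centre, BCL6 and BACH2 encode repressors that hold B cells in the activated state, partly by keeping PRDM1 silent. PRDM1 encodes Blimp-1, which in turn shuts down the B cell programme, while XBP1 enlarges the secretory apparatus and SDC1 encodes CD138, the surface proteoglycan used to recognise plasma cells. IRF8 and IRF4 are related transcription factors that bind composite sites with ETS or AP-1 family partners, IRF8 mainly in B cells before secretion and IRF4 in both states, with high IRF4 favouring the plasma cell.

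The lists gave no read totals. They held between 30136 and 38023 peaks per library, and the lowest local background that their fold enrichments and p-values imply was between 1.51 and 1.86 reads, a measure of relative depth. A median peak had 20 to 22 reads at its summit, so the weaker peaks below rest on few reads. Against the labelled cell line, promoters of 3 of 10 B cell markers were called in every library (MS4A1, BANK1 and FCRLA), 4 in some libraries and 3 in none. Promoters of T cell markers were called for 2 of 10 genes (in every library), of myeloid markers for 1 of 10 (CD14, in 4 libraries) and of erythroid markers for 0 of 10. Over all protein-coding genes 45.6% were called in every library, so the B cell marker share (30.0%) lay below the background. Median promoter percentiles were 7.22 for B cell markers, 0 for T cell, myeloid and erythroid markers, and 23.0 over all genes. These counts do not by themselves establish the cell type. The B cell receptor gene CD79A was called in 4 libraries. Expression was not measured here, so absence of a call at a promoter does not show that a gene was silent.

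The following sequences are shown because the results below turn on them. They come first from the 250 bases before a RefSeq transcript start (RefSeq promoters of GRCh38.p14, each found once in hg19 by exact match and given at its hg19 position), for 3 promoters under called peaks and for the BACH2 promoter, which no peak overlapped. IRF4 lies at chr6:391502-391751 on the + strand, XBP1 at chr22:29196558-29196807 on the − strand, the downstream one of 2 PRDM1 promoters at chr6:106546566-106546815 on the + strand, and BACH2 at chr6:91006563-91006812 on the − strand. Capitals mark every match, on either strand, to 12 motifs. Sites of regulators of these cells were GAAANNGAA (interferon-response type IRF), GGAANNGAA (ETS-IRF composite), TTCCTNGAA (BCL6 type), GAAAGTGAA (PRDM1 type), TGACGTGG (XBP1 type), ATGCAAAT (octamer), GGGANTTTC (NF-kB) and TGANTCAGC (BACH-MAF type). The AP-1 letters were TGANTCA, which every BACH-MAF type match contains. General promoter letters were TGACGTCA for the CRE, GGGCGG for the GC box and TATAAA for the TATA box.
IRF4 promoter: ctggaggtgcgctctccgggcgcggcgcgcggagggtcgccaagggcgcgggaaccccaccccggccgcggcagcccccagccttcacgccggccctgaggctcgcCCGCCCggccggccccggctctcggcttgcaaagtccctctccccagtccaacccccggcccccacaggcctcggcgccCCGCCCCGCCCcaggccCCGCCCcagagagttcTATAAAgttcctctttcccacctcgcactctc
XBP1 promoter: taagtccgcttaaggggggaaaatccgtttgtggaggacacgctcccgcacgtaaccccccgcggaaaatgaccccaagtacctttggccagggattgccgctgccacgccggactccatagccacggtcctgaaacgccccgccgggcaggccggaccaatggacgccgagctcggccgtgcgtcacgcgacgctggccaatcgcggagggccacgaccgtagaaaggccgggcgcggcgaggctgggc
PRDM1 downstream promoter: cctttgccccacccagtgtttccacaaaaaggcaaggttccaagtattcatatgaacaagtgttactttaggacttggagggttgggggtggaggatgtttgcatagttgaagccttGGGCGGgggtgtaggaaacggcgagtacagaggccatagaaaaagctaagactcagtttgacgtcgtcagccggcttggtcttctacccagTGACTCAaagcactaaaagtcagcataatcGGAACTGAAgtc
BACH2 promoter: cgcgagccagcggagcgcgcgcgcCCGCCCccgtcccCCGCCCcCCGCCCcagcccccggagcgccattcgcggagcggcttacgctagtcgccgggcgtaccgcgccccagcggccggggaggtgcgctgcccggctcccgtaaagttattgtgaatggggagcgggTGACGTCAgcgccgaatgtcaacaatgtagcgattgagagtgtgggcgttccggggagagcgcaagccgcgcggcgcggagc

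The capitals in the IRF4 sequence are 4 GC boxes and 1 TATA box that begins 32 bases before the start. A GC box was present in 44.9% of all RefSeq promoters of the same 300 base length and a TATA box in 11.6%. The PRDM1 sequence holds a GC box, an AP-1 match and, 12 bases before the start, an ETS-IRF composite match, the last 2 present in 7.72% and 7.80% of promoters. The BACH2 sequence holds 3 GC boxes and a CRE (1.84% of promoters), and no motif matched in the printed XBP1 sequence. GC content of the full 300 bases was 74.0% for IRF4, 68.7% for XBP1, 48.3% for this PRDM1 promoter and 73.3% for BACH2, beside a median of 58.7% over 34943 promoters. The uncalled BACH2 promoter was thus as rich in G and C as the called IRF4 promoter.

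The other sequences are short windows of hg19, + strand, centred on the summit of distal regions: the strongest distal region of PRDM1 at chr6:106562485-106562685, the strongest of BACH2 at chr6:90790595-90790795, and a BACH2 intronic region at chr6:90995436-90995636, which was chosen after its match was seen.
PRDM1 downstream region: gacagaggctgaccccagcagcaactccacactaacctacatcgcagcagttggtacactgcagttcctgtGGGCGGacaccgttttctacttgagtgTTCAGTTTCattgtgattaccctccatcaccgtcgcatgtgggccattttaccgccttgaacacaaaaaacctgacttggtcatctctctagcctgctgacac
BACH2 intronic region, strongest: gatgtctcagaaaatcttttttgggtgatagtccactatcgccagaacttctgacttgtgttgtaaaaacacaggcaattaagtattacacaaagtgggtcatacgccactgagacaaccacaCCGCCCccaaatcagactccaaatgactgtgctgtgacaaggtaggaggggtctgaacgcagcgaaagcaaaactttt
BACH2 intronic region near the 5′ end: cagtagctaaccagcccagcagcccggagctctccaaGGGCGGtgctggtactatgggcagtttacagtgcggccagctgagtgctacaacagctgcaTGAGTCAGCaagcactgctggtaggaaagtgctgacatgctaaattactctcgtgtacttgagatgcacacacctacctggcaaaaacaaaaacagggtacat

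In the PRDM1 window the capitals are a GC box and, 2 bases before the summit, an interferon-response type IRF match on the − strand. Among windows of the same length at regions called in all libraries, promoter and distal together, 9.54% held an IRF match. Of these 20064 windows, 8292 were at promoter regions, and shares for distal regions alone were not computed. The strongest BACH2 window held only a GC box (33.4% of such windows). The other BACH2 window held a GC box and a BACH-MAF type match, the site class that the BACH2 protein itself is known to bind, again starting 2 bases before the summit (2.42% of such windows). Of the 6 member distal regions called in every library, 3 held an IRF match and 2 an AP-1 match (13.8% of such windows). The NF-kB, octamer, PRDM1 type, XBP1 type, BCL6 type and CRE letters were found in none of the 34 member windows. In the same order, 2.95%, 2.50%, 1.54%, 0.368%, 0.863% and 0.758% of the windows of all regions held them. A match is a description of letters and does not show that a factor bound.

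Over all 7 genes, 11 of the 34 regions (32.4%) were called in every library, where 35.5% of all regions were. Another 10 (29.4%) were called in 1 library only, against 27.4% of all regions, so the member regions were found again about as often as others. Among promoter regions the share was lower: 5 of 14 (35.7%) were called in every library, against 64.2% of all promoter regions. Among distal regions it was 6 of 20 (30.0%), against 27.0%. These shares were not tested. Each library called between 17 and 23 of the 34 regions, and between 51.9% and 65.9% of all regions. Of the 34, 0 regions belonged to a single protocol by both of its replicates. The matching share of all regions was not computed, so this count has no background here.

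**Figure D1:**
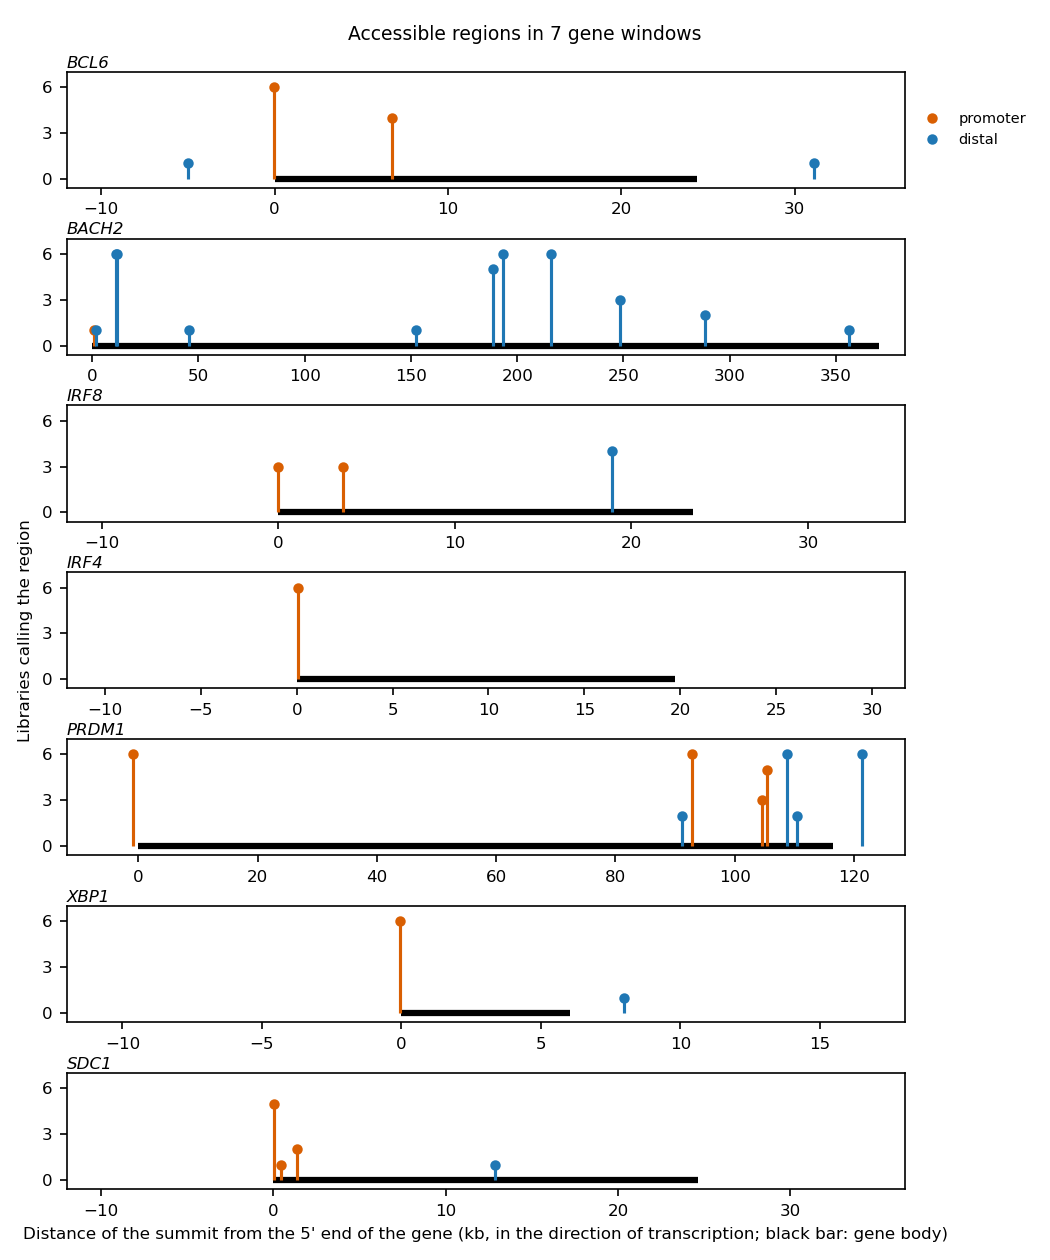
Position of the 34 regions along each gene. The x axis is the distance of the summit from the 5′ end of the gene in kb, in the direction of transcription (scales differ between genes), the height of each line is the number of libraries of 6 that called the region, orange marks promoter and blue distal regions, and the black bar is the gene body. BACH2 carried 4 distal regions called in all 6 libraries and no such promoter, and IRF4 carried 1 region.

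The shared regions were of modest strength. Peaks were placed within their own library by −log10 q, and the percentile is the share of the peaks of that list that were weaker, so that 100 marks the strongest peak. Averaged over libraries, the 11 regions called in every library had a median percentile of 52.1, beside 67.9 for all 20064 regions called in every library. Their mean −log10 q lay between 7.72 and 14.9, and 1 of the 11 lay above the median of all such regions, 14.7. The gap was larger in the promoters, with a median of 8.88 for the 5 member promoter regions and 18.2 for all promoter regions, while the 6 distal regions had a median of 11.4 beside 12.9. Fold enrichment is the reads at the summit over the local background, with 1 added to each. It had a median of 5.34 in the 11 regions and 6.82 in all. None of these medians was tested.

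**Figure D2:**
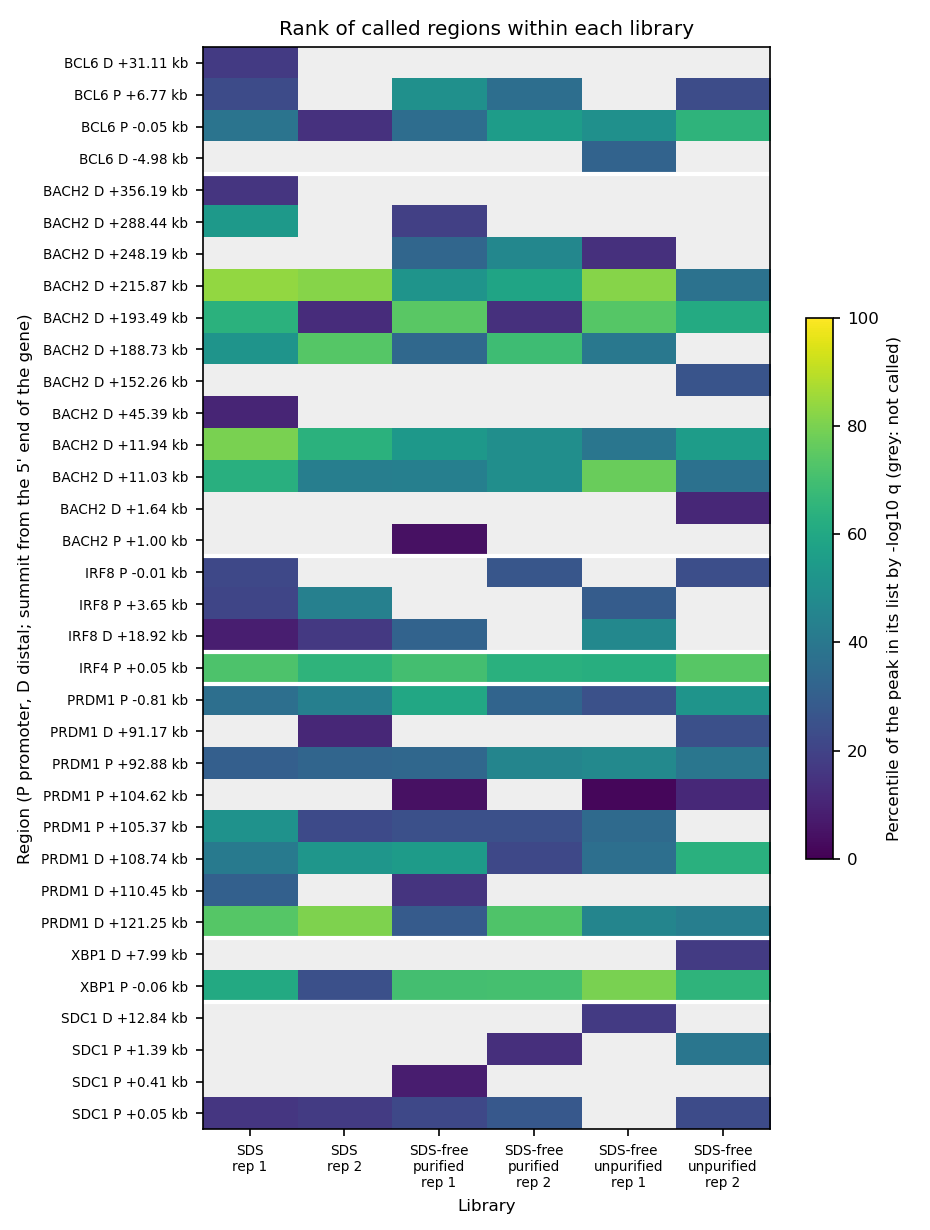
Percentile of each member region in each library. Rows are regions (P promoter, D distal, with the distance of the summit from the 5′ end of the gene in kb), columns are libraries, colour runs from 0 to 100 by −log10 q and grey means not called. The IRF4 promoter row is evenly bright, between 62.5 and 73.9, while the IRF8 and SDC1 rows have gaps and stay at 46.5 or below.

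BCL6, the master repressor of the germinal centre, had 4 regions in its window of 44.3 kb. Its promoter region at the 5′ end (chr3:187463071-187463705, minus strand gene) was called in every library, at percentiles of 38.5 and 14.4 in the SDS libraries, 35.9 and 55.2 in the purified and 50.2 and 65.2 in the unpurified SDS-free libraries. Replicate 2 of the SDS buffer was the lowest and the unpurified replicate 2 the highest, and the summits carried 17 to 32 reads. GENCODE also places a protein-coding and a long noncoding gene without symbols over this region. The other promoter region, in an intron 6.77 kb into the gene, was called in 4 libraries with 21 to 25 reads at the summit and was missing in SDS replicate 2 and unpurified replicate 1. A further RefSeq promoter of BCL6, at chr3:187454240-187454539, was overlapped by no peak, like the BACH2 promoter printed above. The 2 distal regions, at -4983 bp and 31107 bp from the 5′ end, were each called in 1 library. Outside the window, the nearest region called in every library lay 24.3 kb from the gene on its 5′ side, and with 50 kb on each side the window held 8 regions, 3 of them called in every library.

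BACH2, which represses PRDM1 in activated B cells, differed in layout. Its window of 390 kb held 12 regions, 1 promoter and 11 distal, all of them in introns. Per 100 kb this was 3.07 regions, a density higher than that of 53.5% of protein-coding genes, so the number follows the length of the gene. The promoter region was a weak peak 1.00 kb inside the gene, called only in replicate 1 of the purified libraries at a percentile of 4.42, and no peak overlapped the promoter sequence printed above.

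By mean −log10 q, the strongest region of the set was distal and lay in BACH2. The IRF4 promoter region came close, at 13.9, and was higher by other measures. Its mean percentile was 67.8 ± 4.81, beside 65.8 ± 19.4 for the BACH2 region (SD, n = 6). Its summits held 36.3 reads on average, beside 25.2. The highest mean −log10 q of all 34 regions, 14.9, belonged to an intronic region 216 kb from the 5′ end (chr6:90790472-90791033). Its −log10 q was 21.4 and 18.4 in the SDS libraries, 9.88 and 10.8 in the purified and 21.3 and 7.52 in the unpurified SDS-free libraries. Both SDS libraries and unpurified replicate 1 were high and the other 3 low, so the unpurified replicates fell on opposite sides. The summits lay within a narrow stretch, from 125637 to 125715 bp inside the nearest annotated start of a shorter BACH2 transcript.

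Another intronic region, 193 kb from the 5′ end (chr6:90812749-90813505), varied most among the 11 regions called in every library. Its percentile was 63.9 and 12.8 in the SDS libraries, 74.5 and 14.0 in the purified and 73.6 and 61.1 in the unpurified ones, an SD of 28.8 over 6 libraries. Between it and the region at 216 kb no further peak was called. A neighbour at 189 kb (chr6:90817662-90818110) was called in 5 libraries at percentiles of 33.7 to 73.7 and held an ETS-IRF composite match.

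Nearer to the 5′ end, 2 neighbouring intronic regions were called in every library, at 11.9 kb (chr6:90994142-90995125) and 11 kb (chr6:90995243-90996042). The first had percentiles of 80.0 and 64.0 in the SDS libraries, 53.3 and 49.3 in the purified and 39.2 and 55.3 in the unpurified libraries, so that both SDS libraries lay above the other 4. The second, which holds the BACH-MAF type match, had percentiles of 63.0 and 42.7, 43.0 and 49.5, and 77.1 and 37.4 in the same order, and its groups overlapped. The other 7 BACH2 regions, promoter included, were called in 1 to 3 libraries.

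IRF8, a factor of germinal centre B cells, had 3 regions and none called in every library. The promoter region at the 5′ end (chr16:85932548-85933018) was called in 3 libraries, 1 of each protocol, at percentiles of 21.6, 26.8 and 23.9. An internal promoter region 3.65 kb into the gene (chr16:85936269-85936643) was called in 3 libraries as well, at 21.0, 43.5 and 29.0. Only SDS replicate 1 called both. The intronic region at 18.9 kb was called in 4 libraries at 8.29 to 46.5. Thus 5 of 6 libraries called some IRF8 promoter, with purified replicate 1 the exception, but not the same one. Just outside the window, 13.1 kb beyond the 3′ end, lay a region called in every library.

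IRF4, which acts in both states, had a single region in its window of 39.7 kb, at the 5′ end (chr6:391460-392236). It was called in every library with 30 to 42 reads at the summit. Its percentile was 72.0 and 64.9 in the SDS libraries, 70.2 and 63.6 in the purified and 62.5 and 73.9 in the unpurified libraries, so the groups overlapped. The mean of 67.8 ± 4.81 (SD, n = 6) was the highest and the steadiest among the 7 promoters apart from the barely called BACH2. The summits lay between 97 bp before and 150 bp after the nearest annotated start, next to the GC boxes and the TATA box shown above. No distal region was found within 10 kb, and the nearest region of any library was 26.5 kb below the gene.

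PRDM1, the gene of the plasma cell repressor Blimp-1, carried 8 regions, 4 promoter and 4 distal, and 4 of them were called in every library. Its density, 5.86 per 100 kb, was above that of 80.3% of protein-coding genes. Accessible promoters lay at starts far apart from each other. The region 0.807 kb before the 5′ end of the longest GENCODE transcripts (chr6:106439884-106440705) had percentiles of 36.7 and 43.2 in the SDS libraries, 60.0 and 32.4 in the purified and 24.8 and 51.9 in the unpurified libraries. The region over the start 92.9 kb further on (chr6:106533976-106534438) had percentiles of 30.3 to 47.0, within the range of the first. The region at the downstream promoter printed above (chr6:106546391-106546893) was called in 5 libraries at 22.5 to 51.0 and was missing in unpurified replicate 2. A small region beside it was called in 3 libraries at 11.7 or below. Over all PRDM1 regions except the first, GENCODE also places the autophagy gene ATG5.

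Measured from the 5′ end of the longest transcripts, the distal regions of PRDM1 all lay in the 3′ part of the gene or beyond it. From the nearest annotated start, their summits lay at -1690, 3266, 4970 and 15770 bp, where a negative value is upstream. An intronic region 109 kb from the 5′ end (chr6:106549838-106550353) was called in every library with 22 to 34 reads, at percentiles of 21.8 to 63.5, and holds an IRF match. The strongest lay beyond the 3′ end, 121 kb from the 5′ end (chr6:106562295-106562807). Its −log10 q was 16.1 and 17.8 in the SDS libraries, 6.43 and 14.8 in the purified and 9.06 and 8.18 in the unpurified libraries. Both SDS libraries were the highest, purified replicate 2 came next and the other 3 libraries were low, so the purified replicates fell apart. The 2 remaining distal regions were called in 2 libraries each.

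XBP1, a factor of the unfolded protein response, had 1 promoter region called in every library (chr22:29196184-29196877) and 1 distal region called in unpurified replicate 2 alone. The promoter peak had a fold enrichment of 6.67 and 4.78 in the SDS libraries, 7.88 and 7.43 in the purified and 8.33 and 6.81 in the unpurified libraries. Both SDS libraries were the lowest, and SDS replicate 2 stood apart with 16 reads at the summit beside 23 to 33 in the others. Its percentile, 61.8 ± 19.4 (SD, n = 6), ran from 24.3 in that library to 79.8.

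SDC1, the plasma cell surface marker, had 4 regions, 3 of them at promoters, and none was called in every library. The one at the 5′ end (chr2:20424976-20425355) was called in 5 libraries with 18 to 23 reads, at percentiles of 15.7 and 17.5 in the SDS libraries, 21.7 and 27.7 in the purified libraries and 23.0 in unpurified replicate 2. It was low wherever it was called, and unpurified replicate 1 did not call it. A promoter region 1.39 kb into the gene was called in 2 libraries, and the remaining promoter region and the intronic one in 1 library each.

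Set side by side by the strongest promoter peak in each library, with 0 for a library without one, the order did not separate the states. IRF4 (67.8 ± 4.81) was followed by XBP1 (61.8 ± 19.4), PRDM1 (49.8 ± 5.96), BCL6 (45.6 ± 17.5), IRF8 (24.1 ± 14.1), SDC1 (20.3 ± 13.1) and BACH2 (0.736 ± 1.80; mean percentile ± SD, n = 6 libraries each). Neighbours from IRF4 to BCL6, and IRF8 and SDC1, differed by less than the larger of their SDs. BCL6 and IRF8 differed by more, but their ranges overlapped, from 14.4 to 65.2 and from 0 to 43.5, and SDC1 and BACH2 likewise differed by more than their SDs while both had libraries at 0. The PRDM1 range, 43.2 to 60.0, lay wholly below that of IRF4, 62.5 to 73.9. In PRDM1, BCL6, IRF8 and SDC1 the strongest peak was not at the same promoter region in every library. On their own, the PRDM1 promoter regions called in every library had 41.5 ± 12.9 and 38.1 ± 7.06. The BCL6 promoter region called in every library had 43.2 ± 17.8. Promoters of 4 of the 7 genes (PRDM1, XBP1, IRF4 and BCL6) were called in every library, beside 45.6% of the 19794 protein-coding genes.

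**Figure D3:**
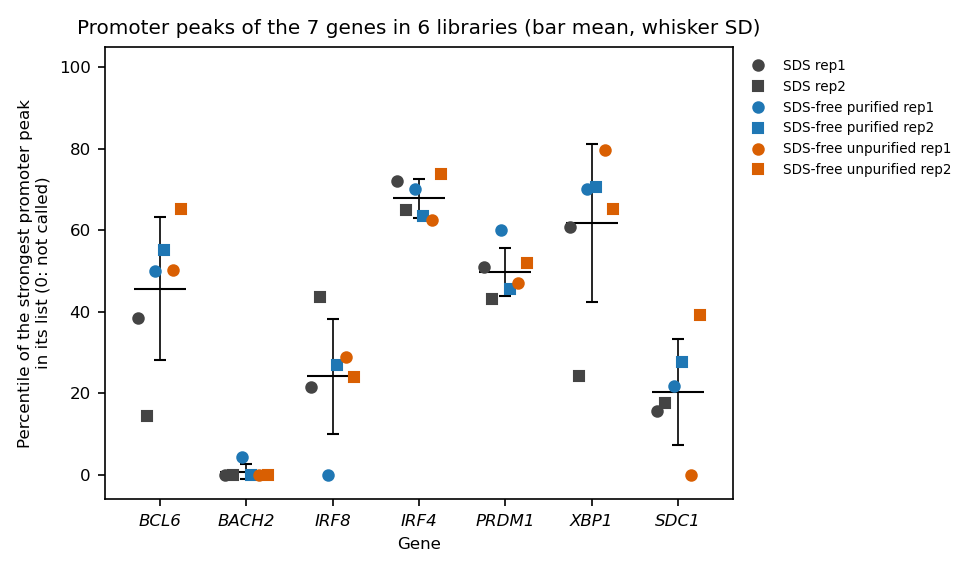
Strongest promoter peak of each gene in each library. The y axis is the percentile in the library's list by −log10 q (0: not called), colour marks the protocol, symbol shape the replicate, the bar the mean and the whisker the SD over 6 libraries. IRF4 is tight around 67.8, XBP1 and BCL6 are spread by a low value of SDS replicate 2, and BACH2 lies at or near 0.

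The same was asked of 30 other textbook genes of each state. Of the activated and germinal centre list, 17 promoters (56.7%) were called in every library, 9 in some and 4 in none, with a median percentile of 43.6. Of the plasma cell list, 22 (73.3%) were called in every library, 5 in some and 3 in none, with a median of 77.4. Over all protein-coding genes 45.6% were called in every library and the median was 23.0, and over the 7 genes the median was 45.6. Many plasma cell genes of the list serve the endoplasmic reticulum in every cell, so the list is not specific to secreting cells. At −log10 q of at least 5 the counts were 14 activated B cell and 21 plasma cell promoters, beside 42.7% of all protein-coding genes. With equal peak numbers per library they were 13 and 22, beside 42.6%. The activated B cell share thus depended on weaker peaks. These shares were not tested, and no list is called particular.

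Among activated B cell genes with a promoter called in every library, ETS1, an ETS family factor of lymphocytes (94.3), GCSAM, a germinal centre signalling protein (93.3), MYBL1, a MYB family factor (93.2), and MEF2B, an activator of BCL6 transcription (81.7), had the highest mean percentiles. The lowest were CR2, the complement and Epstein-Barr virus receptor (17.3), the survival gene BCL2A1 (37.2), the factor BCL11A (44.7) and the E protein inhibitor ID3 (44.8). No library called a promoter of SPI1, which encodes PU.1, of RGS13, of LMO2 or of the germinal centre gene SERPINA9. PAX5, the B cell identity factor, named here after its values were seen, was called in 1 library.

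Among plasma cell genes, ZBTB20 (99.7), the protein disulfide isomerase PDIA4 (99.6), the endoplasmic reticulum chaperone partner DNAJB9 (99.5) and the secretory pathway factor CREB3L2 (98.8) were highest. The lowest of those called in every library were MZB1, a chaperone of immunoglobulin assembly (35.7), the disulfide isomerase TXNDC5 (49.7), the surface enzyme CD38 (51.0) and the kinase PIM2 (68.0). The joining chain gene JCHAIN, the plasma cell homing receptor CCR10 and AMPD1 had no called promoter.

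**Figure D4:**
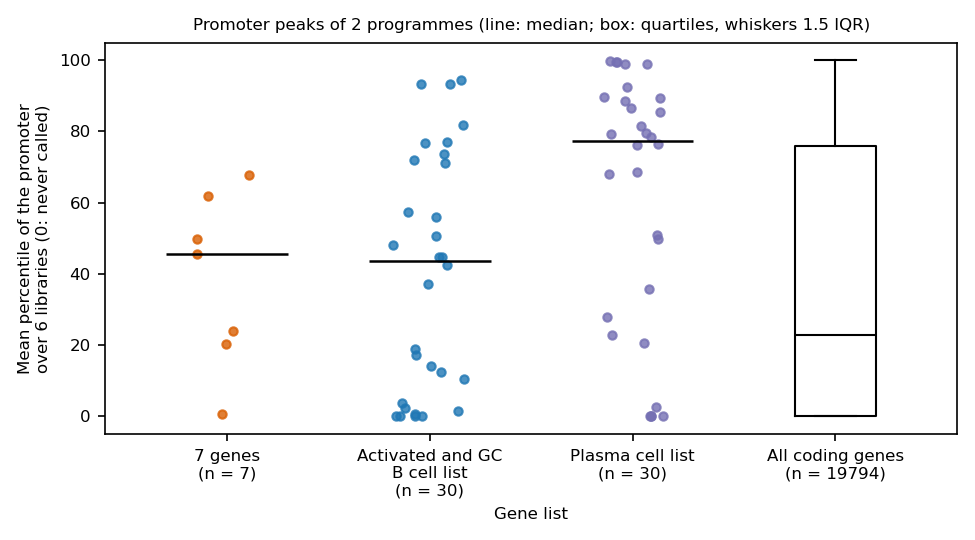
Mean promoter percentile over 6 libraries for the 7 genes, 30 activated and germinal centre B cell genes, 30 plasma cell genes and all 19794 protein-coding genes. Each point is a gene, spread sideways only for legibility, the line is the median, and the box and whiskers show quartiles and 1.5 interquartile ranges. Medians are 45.6, 43.6, 77.4 and 23.0.

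For the 4 genes whose promoters were called in every library, PRDM1, XBP1, IRF4 and BCL6, the most similar promoters were sought among these 60 genes by the mean absolute difference in percentile over 6 libraries. IRF4 was closest to MEF2C (5.57 percentile points) and CAV1 (5.75). PRDM1 was closest to BCL11A (8.29) and CD38 (10.3), XBP1 to PIM2 (12.2) and SEC61B (14.4), and BCL6 to BCL11A (13.7) and CD40 (15). PRDM1 and BCL6 thus shared their nearest promoter, BCL11A, and IRF4 and PRDM1 had 1 neighbour from each list. The measure compares level only, so promoters of similar mean percentile come out as neighbours. The XBP1 and BCL6 distances were below these genes' own SDs over libraries, 19.4 and 17.5. Closeness was not tested.

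The protocols were compared by limma on the log2 fold enrichment at the summit over the 20064 regions called in all libraries, 11 of them members. An exact two-sided permutation test of 2 libraries against 2 could not go below p = 0.333 and was not used. After Benjamini-Hochberg adjustment, 0 of 20064 regions (0%) passed 0.05 in any of the 3 contrasts, members included. At an unadjusted p under 0.05 there were 1230 regions (6.13%) between purified SDS-free and SDS libraries, 1201 (5.99%) between unpurified SDS-free and SDS, and 867 (4.32%) between unpurified and purified, and of the 11 members 2, 1 and 0. On the log2 summit reads centred on each library's median, 0 regions again passed after adjustment, and the members at an unadjusted p under 0.05 were 0, 4 and 0 of 11, among 1539, 1480 and 947 regions. Those 4, in unpurified SDS-free against SDS libraries, were the XBP1 promoter with a log2 difference of 0.51, the BCL6 promoter with 0.52, the BACH2 region at 11.9 kb with -0.47 and the PRDM1 region at 121 kb with -0.67 (limma, adjusted p = 0.658 for each).

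On the fold enrichment, the 3 member regions at an unadjusted p under 0.05 were the XBP1 promoter, the BACH2 region at 216 kb and the PRDM1 region at 121 kb. In purified SDS-free against SDS libraries, the XBP1 promoter had a log2 difference of 0.44 (limma SE 0.20, adjusted p = 0.808). Without SDS replicate 2, which was low there, that difference was 0.20, and without SDS replicate 1 it was 0.68. In the same contrast the BACH2 region differed by -0.51 on the log2 scale (limma SE 0.23, adjusted p = 0.808). In unpurified SDS-free against SDS libraries, the PRDM1 region differed by -0.52 (limma SE 0.21, adjusted p = 0.805). None of the 3 passed the adjusted threshold.

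Groups that do not overlap were counted in the same way. Purified SDS-free and SDS libraries did not overlap in 3 of the 11 member regions, with XBP1 higher and the BACH2 regions at 216 kb and 11.9 kb lower, where 33.8% of all shared regions did not overlap. Unpurified SDS-free and SDS libraries did not overlap in 4, with the XBP1 and BCL6 promoters higher and the PRDM1 region at 121 kb and the BACH2 region at 11.9 kb lower, where the background was 35.0%. Unpurified and purified libraries overlapped in all 11, against a background of 32.2%. The counts against SDS lay near the background and are not a result about these genes.

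**Figure D5:**
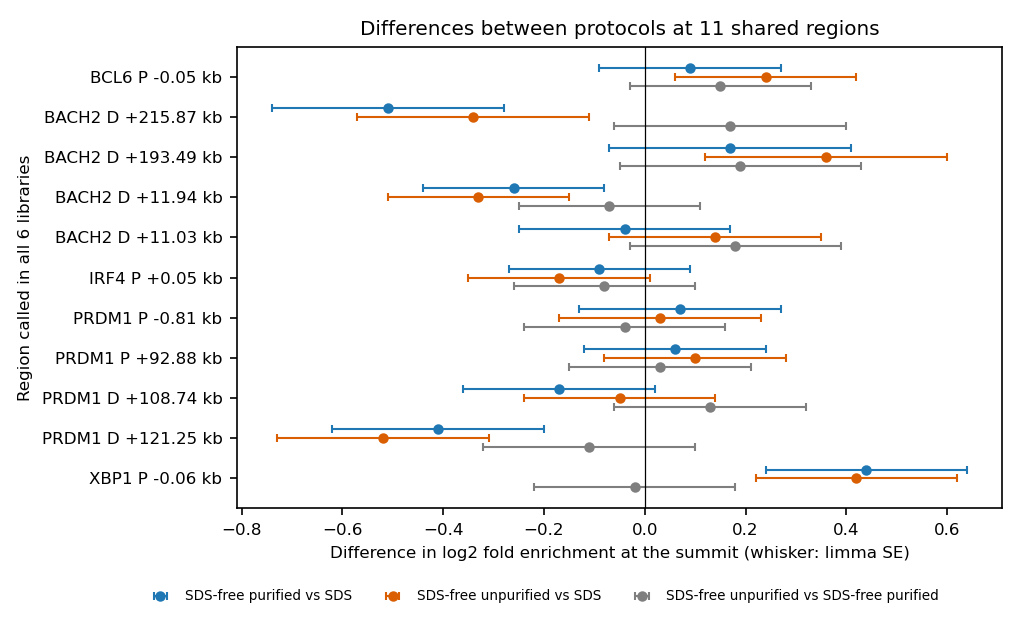
Differences between protocols at the 11 regions called in every library. The x axis is the difference in log2 fold enrichment at the summit, points are limma estimates, whiskers their SE and colours the 3 contrasts. Estimates run from -0.52 to 0.44 and none passed the adjusted threshold.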

How the data were processed

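Peak lists of 6 ATAC-seq libraries were used, with groups and replicate numbers from the sample labels. The authors trimmed reads and aligned them to hg19 with Bowtie2 2.1.0. They filtered for mapping quality and proper pairs, and discarded duplicates (Picard 1.79) and mitochondrial alignments. Narrow peaks came from MACS2, version not given in the sources used here, with a q threshold of 0.01 and no read shift. The methods describe merging reads of a condition before calling, but there is 1 list for each library. For each peak the deposited lists hold a score (−log10 q times 10 without decimals, not used for ranking). They also hold the fold enrichment at the summit relative to local background, a ratio computed by the authors, and the −log10 p and −log10 q deposited for that summit. The fold enrichment is relative to each library's own background, and a region without a peak has no value.

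From there, peaks that overlapped or adjoined were merged across libraries, and placed on GENCODE version 44 genes lifted to hg19. Reads at the summit were solved from fold enrichment and p, exact within 0.001 in −log10 p for 100% of peaks. Fold enrichment was taken as summit reads plus 1 over background plus 1, which lowers ratios where the background is small. Protocols were compared with limma 3.58.1 (R 4.3.3) over regions called in every library, with Benjamini-Hochberg adjustment over all of them. The files hold no counts, so no count model was fitted. Overlaps were checked against bedtools 2.31.1, and the test was checked on simulated data. Python 3.11.15, pandas 2.3.3 and SciPy 1.17.1 were used. Motifs were searched in hg19 windows of 201 bases and in RefSeq promoters of 300 bases (GRCh38.p14, 12 for the 7 genes).

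The members, the gene lists and the markers were chosen with earlier results of these data known. All 7 genes and their promoter regions were named, with the strongest distal region of each gene by mean −log10 q (0 where not called), any region called in 1 protocol only, and regions at an unadjusted limma p under 0.05. From each list the 4 highest and 4 lowest promoters called in every library and those never called were named. Regions named beyond this rule are the other distal regions in the gene accounts, PAX5, CD79A and the marker genes. Some marker genes are not reported here by name. Alternatives were a −log10 q of at least 5, equal peak numbers, other windows, merging and ranking, centred values, summit reads, a replicate block and each library left out.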

Additional observations from a re-analysis of the deposited data

How the results depend on the processing

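Of the recomputed values that answer a comparison, 87 stayed the same. That means the same side of the threshold, within 1.5 times of the reported count or, for ranks, within the SD over libraries. The exceptions were as follows. Ranked by fold enrichment in place of −log10 q, the median percentile of the 11 shared regions was 38.9, against 52.1 (SD over libraries 6.65). Ranking by −log10 p gave 52.1 again, but q is computed from p, so this alternative could hardly differ. With regions called in at least 4 libraries, limma called 1 region between unpurified SDS-free and SDS libraries, where it called 0, and this was not a member. Leaving out each library in turn gave 31 to 35 member regions, 10 to 13 of them called in all remaining libraries, 4 to 5 member promoters, 17 to 18 activated B cell and 22 to 22 plasma cell promoters, and 0 limma calls in each contrast. IRF8 joined the promoters without purified replicate 1, and SDC1 without unpurified replicate 1. Without a replicate of the SDS buffer, the lone SDS library was assumed to vary like the other groups. The log2 differences then ran from 0.20 to 0.68 at the XBP1 promoter, from -0.61 to -0.41 at the BACH2 region at 216 kb and from -0.63 to -0.41 at the PRDM1 region at 121 kb. Extending the gene windows to 50 kb on each side gave 51 regions, 15 of them called in every library, and gene bodies alone gave 29 and 9.

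Replicate numbers did not pair the libraries: deviations from the group mean of same-numbered libraries correlated at 0.013, -0.000802 and 0.0149 over 20064 regions in the 3 pairs of protocols. With the replicate block 0 regions passed in each contrast, as without it. Depth limits the weaker peaks, which rest on about 20 reads or fewer, and a missing call is not evidence of closed chromatin. The cause of the differences between replicates was not tested.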
